A study of Aedes aegypti with 20 samples.

Results

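Genes whose transcripts were highest in the pedicel of female Aedes aegypti, the yellow fever mosquito, numbered 126 of the 19804 gene IDs measured. They had a median of at least 5 CPM in female pedicels, where CPM are counts scaled to a common library total, and this median was at least 2 times the median of male pedicels, female heads and male heads, with 0.1 CPM added to each side. A further 3 genes met these limits and were left out because both female medians were at least 16 times the male median of the same tissue. With TMM scaling in place of library totals, the same limits took in 226 genes, 124 of them among the 126. The members were chosen on the very difference between female pedicels and the other groups, and that difference is described below without a test. What was tested is male pedicels against male heads, female heads against male heads, and the use of transcripts within a gene. The choice held male pedicels and both heads below the female pedicel. Apart from the limit of 16 times, it did not use the differences between these groups.

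The pedicel is the swollen segment of the antenna that houses Johnston's organ, the hearing organ. In this organ, ciliated sensory neurons grouped in scolopidia turn vibrations of the antennal flagellum into electrical signals. Males hear and approach the flight tone of females, and their organ is larger, whereas the hearing of females has been studied less. Besides neurons, the pedicel holds supporting cells, epidermis, cuticle and haemolymph. The table used here gives gene IDs without names, and 0 of 19804 found a match among the RefSeq genes of AaegL5.0, so genes are given by ID with no role. Lists of marker genes of other cell types could not be read for the same reason, and the labelled tissue was not checked against its markers.

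RNA sequencing covered 20 libraries, 5 each of female pedicels, male pedicels, female heads and male heads of the wild-type Liverpool strain. Females had not fed on blood and males were virgin. Animals were entrained for 2 days in an incubator and frozen at zeitgeber time 12. Libraries held between 5060010 and 9404311 estimated counts, so that 1 count was worth between 0.106 and 0.198 CPM. Nothing in the labels says that replicate libraries were made from separate mosquitoes, and p-values below measure only the spread between libraries, which may be technical. In tissue of this kind, fewer cells of a type and less RNA per cell cannot be told apart.

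Male pedicels 3 and 4 stood apart from the other male pedicels before any gene was named. The 126 members together took 7.69%, 19.4%, 47.5%, 49.2% and 39.9% of the counts of female pedicels 1 to 5. In male pedicels 1 to 5 they took 3.52%, 2.30%, 41.3%, 64.2% and 7.71%. In female heads their share ran from 0.904% to 1.43%, and in male heads from 0.233% to 1.66%. The single highest share was thus in male pedicel 4, and female pedicel 1 lay beside male pedicel 5. A median of 5 libraries is not raised by 2 high ones above the level of the other 3, so a gene abundant in male pedicels 3 and 4 can still meet the rule. Counts without these 2 libraries are also given for the choice and for male pedicels against male heads, but not for every result.

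The members fell into 3 sets, which were drawn after the values were seen and are a description only. In the first set, 50 genes had a higher CPM in every female pedicel than in any of the other 15 libraries, and they are called separated here. Over all 11381 genes with enough counts to test, 69 (0.606%) were separated in this way, but the members were chosen on that contrast and nothing can be read from the excess. In the second set, 35 gene IDs carried values identical in all 20 libraries, to 3 decimals, to those of another gene ID, so their counts cannot be assigned to 1 ID and they are called copies. The third set held the remaining 41 genes. Since the 35 copies repeat only 4 patterns of values, the 126 IDs amount to 95 distinct patterns.

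**Figure D1:**
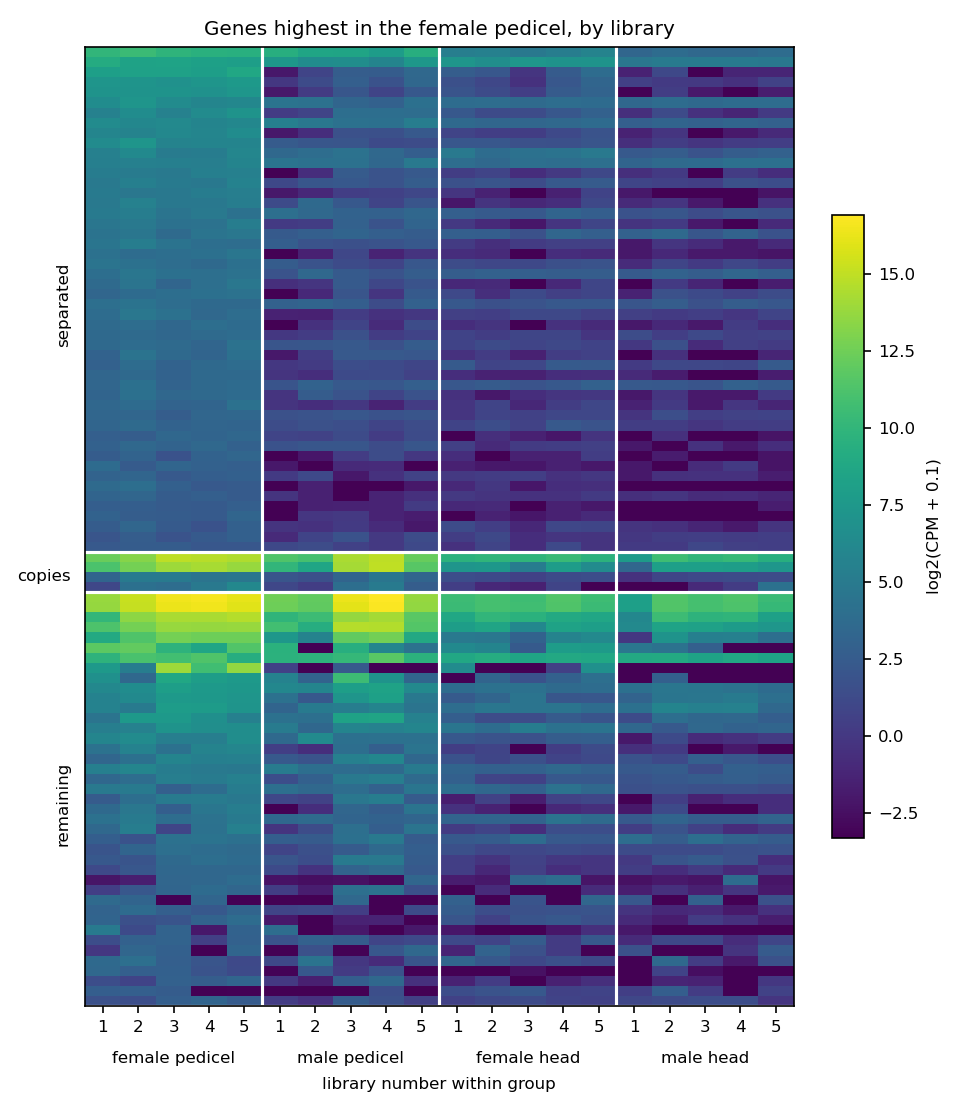
Level of the 95 distinct patterns (rows) in the 20 libraries (columns), as log2(CPM + 0.1), with female pedicels at the left and the 3 sets from top to bottom. The 50 separated genes are evenly high across the 5 female pedicels, while abundant copies and remaining members such as AAEL028724 and AAEL028907 are about as high in male pedicels 3 and 4 as in female pedicels 3 to 5.

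The separated genes gave the most even picture of female pedicels. AAEL006176 had the highest ratio among them, with 270, 314, 302, 263 and 420 CPM in female pedicels 1 to 5. Its level in male pedicels was 0.142, 1.71, 6.10, 5.78 and 11.4 CPM, in female heads 0.767 to 14.3 CPM and in male heads 0 to 1.98 CPM. The lowest female pedicel thus lay far above the highest library of any other group, and its median was 51.3 times the highest other median.

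AAEL005374 followed with 148, 139, 119, 152 and 188 CPM in female pedicels, against 0.854 to 10.5 CPM in male pedicels, 0.639 to 9.52 CPM in female heads and 0.649 to 1.49 CPM in male heads. AAEL014615 stood at 135, 136, 134, 118 and 157 CPM in female pedicels, with 0.142 to 4.72 CPM in male pedicels, 1.28 to 8.51 CPM in female heads and 0 to 1.19 CPM in male heads. Its coefficient of variation over the 5 female pedicels, 10.2%, was the lowest of the 126 members. AAEL011499 was a gene of lower level with a ratio of 33.7, at 14.2 to 24.8 CPM in female pedicels and no more than 1.85 CPM in any other library.

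Of the other 9 of the 13 genes, AAEL005776 had 59.8, 54.2, 68.9, 60.0 and 89.7 CPM in female pedicels against 0.142 to 4.87 CPM in male pedicels, and AAEL025584 had 85.7, 152, 52.9, 56.4 and 55.0 CPM against 2.19 to 5.55 CPM. AAEL027631 lay between 26.6 and 41.0 CPM in female pedicels and at most at 1.92 CPM in male pedicels. AAEL017043, AAEL012766, AAEL007815, AAEL002591, AAEL010375 and AAEL004002 stayed between 5.04 and 26.4 CPM in female pedicels. AAEL004002 had 0.264 to 1.14 CPM in male pedicels and 0.812 to 2.05 CPM in heads. Over the 126 members the next highest group was the male pedicel for 97, the female head for 21 and the male head for 8, and all 35 copies were among the 97.

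Among the 50 separated genes, the female pedicel median ran from 5.07 to 933 CPM with a median of 15.7 CPM. Their ratio to the highest other group ran from 2.01 to 51.3 with a median of 6.36, and 13 of the 50 reached a ratio of 10. The most abundant was AAEL007806, with 997, 1391, 933, 721 and 699 CPM in female pedicels against 662, 389, 362, 235 and 657 CPM in male pedicels. The lowest female pedicel, at 699 CPM, lay just above the highest male pedicel, at 662 CPM, and the ratio of the medians was 2.40. Together the 50 genes held 0.245% to 0.363% of the counts of female pedicels, 0.0450% to 0.109% of male pedicels, 0.0277% to 0.0391% of female heads and 0.0114% to 0.0160% of male heads.

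**Figure D2:**
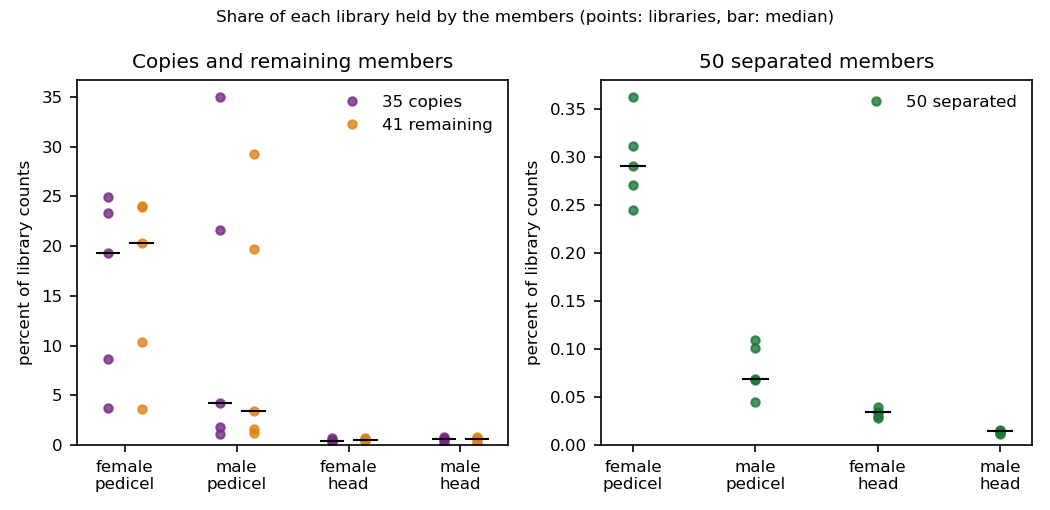
Percent of each library's counts held by the 35 copies and the 41 remaining members (left) and by the 50 separated members (right), with a point per library and a bar at the group median. On the left, 2 male pedicels lie among or above the higher female pedicels, whereas on the right the female pedicels, at 0.245% and above, lie over every other library.

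The trace of the separated genes in other libraries differed between libraries of 1 group. For the 13 genes with a ratio of at least 10, the level in each library was expressed in percent of the gene's mean in female pedicels, and the median over the 13 was taken. It was 0.105%, 1.54%, 4.69%, 3.47% and 4.05% in male pedicels 1 to 5, and 2.88%, 2.35%, 0.939%, 3.75% and 5.02% in female heads 1 to 5. Male heads lay between 0.116% and 0.661%. Male pedicel 1 was the lowest male pedicel and female head 3 the lowest female head, and AAEL006176, AAEL005374 and AAEL014615 each had their lowest value of the group in those same libraries. Male pedicel 5, at 4.05%, had 4.18% of its counts in copies, and male pedicel 4, at 3.47%, had 34.96%. The order of these libraries depends on the scaling, as the levels are on library totals. The TMM factor was 0.49 for male pedicel 4 and 1.31 for male pedicel 5. How the order of male pedicels relates to the share of the copies was not tested.

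**Figure D3:**
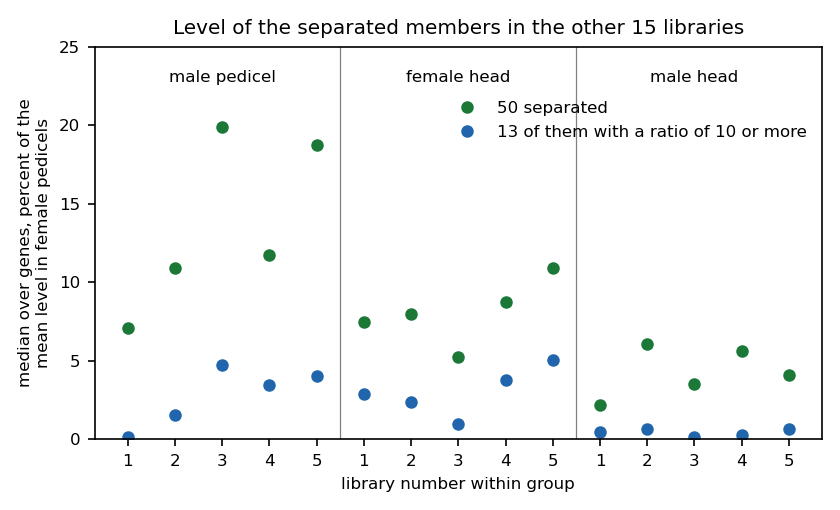
Median level of the 50 separated genes (green) and of the 13 of them with a ratio of at least 10 (blue) in the 15 libraries that are no female pedicels, in percent of each gene's mean in female pedicels. The median over the 13 genes is 5.02% or less in each library and 0.661% or less in each male head, and single genes lie above it.

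The copies were of another kind. A pattern of 4 IDs, AAEL028724 among them, stood at 5124, 9856, 30257, 26800 and 22827 CPM for each ID in female pedicels 1 to 5. In male pedicels 1 to 5 the same IDs had 2646, 1986, 20865, 30857 and 4634 CPM, and in heads 208 to 1556 CPM. A pattern of 7 IDs, AAEL028689 and AAEL028906 among them, had 2350, 6663, 15979, 20236 and 14489 CPM in female pedicels against 1041, 380, 18902, 32226 and 3294 CPM in male pedicels. For both patterns male pedicel 4 was the highest of the 20 libraries, and the groups overlapped.

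The largest pattern, of 21 IDs with AAEL028644 as an example, was far lower, at 8.86 to 31.7 CPM in female pedicels and 2.91 to 22.7 CPM in male pedicels. A pattern of 3 IDs, AAEL028665 among them, ran from 1.84 to 70.3 CPM in female pedicels. All 35 copies were lowest in female pedicel 1. Their IDs also lie close together in number. Of the 126 members, 46 (36.5%) carried a number between AAEL028644 and AAEL028996, a range that holds 353 (1.78%) of the 19804 IDs. The files give neither the biotype nor the position of these IDs.

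Abundant genes with values of their own went with the copies. AAEL028907 was the most abundant member, at 13959, 38451, 93512, 101505 and 73805 CPM in female pedicels 1 to 5, and 5901, 4250, 79906, 123508 and 13644 CPM in male pedicels 1 to 5. AAEL028730 had 13256 to 92179 CPM in female pedicels and 3992 to 113932 CPM in male pedicels. These 2 genes alone took 2.72% to 19.4% of the counts of female pedicels and 0.824% to 23.7% of male pedicels. AAEL019332 likewise ran from 1091 to 25500 CPM in female pedicels and from 983 to 18962 CPM in male pedicels. Each of the 3 genes had its 2 highest male values in male pedicels 3 and 4, both above the lowest female pedicel.

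Overlap with male pedicels came mostly from the same libraries. In 54 of the 126 members every female pedicel lay above every male pedicel, where 317 of all 11381 genes tested (2.79%) did. In 105 of the 126 every female pedicel lay above every head, against 4.45% of all genes tested. The members were chosen on these contrasts, so nothing can be read from either excess. Among the 72 members that overlapped with male pedicels, male pedicel 3 exceeded the lowest female pedicel in 64, male pedicel 4 in 63 and male pedicel 5 in 54, whereas male pedicel 1 did so in 15 and male pedicel 2 in 11. In the fit with TMM scaling, 13 members had a log2 fold below 0 for female over male pedicels, down to -0.64 for AAEL019334, among them the 7 copies that include AAEL028689 at -0.15. In 61 of the 126 members, or 30 of the 95 distinct patterns, both male pedicels 3 and 4 lay above the lowest female pedicel. The counts for each male pedicel given above take each of the 35 copies singly. Without male pedicels 3 and 4 the same rule chose 132 genes, 115 of them among the 126, and all 35 copies were chosen again. For the copies this was fixed in advance, since both libraries lay at or above the male pedicel median in each pattern. Without male pedicel 1, or without male pedicel 2, only 21 of the 35 copies were chosen. Without male pedicel 5, and with means in place of medians, 24 were.

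The spread between the 5 female pedicel libraries was wide for many members. Over the 126, the highest library stood at a median of 3.55 times the lowest, against 2.03 times for the 7662 other genes with a female pedicel median of at least 5 CPM. The value of 3.55 is that of the 21 identical copies, and it was 2.64 over the 95 distinct patterns and, over the 126, 2.18 without female pedicel 1. The median was 1.86 in the separated genes and 5.95 in the remaining 41. The coefficient of variation had a median of 26.4% in the separated genes and 57.7% in the remaining members, against 29.4% in the 7662 genes. The separated genes were picked for having no low female pedicel, so a small spread was to be found among them. The highest library was within 2 times the lowest in 31 members, and at 10 times or more in 15.

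Several members were high in some of the female pedicels only. AAEL028731 had the highest ratio of all, 1183, and the largest spread, with 197, 38.2, 16217, 1671 and 12390 CPM in female pedicels 1 to 5. Its level was 0 to 4.85 CPM in male pedicels, 0 to 114 CPM in female heads and near 0 in male heads. Female pedicel 2, at 38.2 CPM, thus lay below 2 of the female heads, which had 89.2 and 114 CPM. AAEL028659 had 3635, 4174, 873, 387 and 2711 CPM in female pedicels and 791, 0, 671, 59.8 and 19.8 CPM in male pedicels after rounding, so 2 male pedicels exceeded the lowest female one.

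Some members of lower level also had a wide spread. AAEL007815, with the smallest spread, had 193 counts in female pedicels, and the part of low counts in the spread was not tested. AAEL007097 had 31.8, 2.27, 8.48, 0.144 and 8.02 CPM in female pedicels, 329 counts in all, and 14.7 CPM in male pedicel 1 against at most 0.148 CPM in the other 4 male pedicels. AAEL023070 had 10.01, 10.8 and 14.0 CPM in female pedicels 3 to 5 and no more than 0.230 CPM in the other 2. It also had 10.2 CPM in male pedicel 5, 9.58 and 14.0 CPM in female heads 3 and 4 and 14.4 CPM in male head 4, so that single libraries of every group reached the same level. AAEL025019, AAEL023687 and AAEL026022 were each at or near 0 in at least 1 female pedicel, and none exceeded 12.9 CPM in any. At the even end, AAEL007815 ran from 5.33 to 6.90 CPM in female pedicels, AAEL007954 from 10.5 to 14.5 CPM, AAEL001319 from 4.29 to 5.94 CPM and AAEL026787 from 39.4 to 56.9 CPM.

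**Figure D4:**
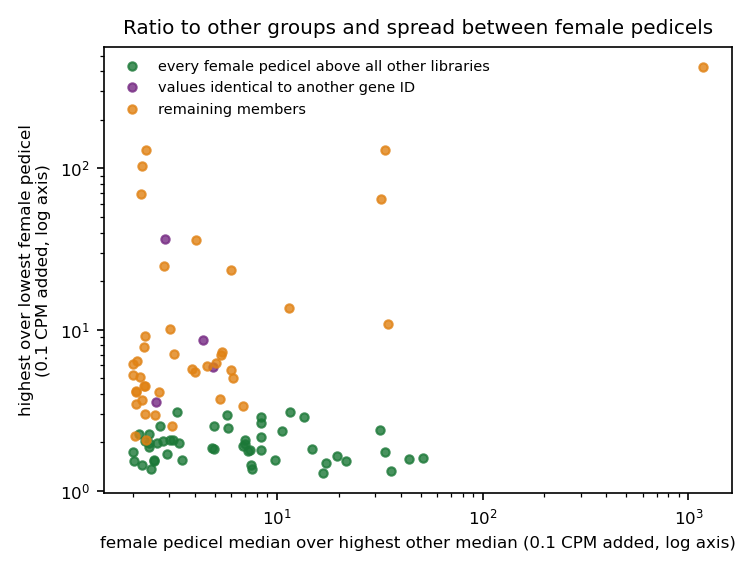
Highest over lowest female pedicel (y axis) against the female pedicel median over the highest other median (x axis), both with 0.1 CPM added and on log axes, for the 95 distinct patterns. Separated genes, in green, stay at a spread of 3.09 or less at any ratio, whereas some remaining members with a high ratio also have a high spread, AAEL028731 with a ratio of 1183 and a spread of 424 above all.

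No female pedicel was the top or the bottom library throughout. Among the 50 separated genes, female pedicel 5 was highest in 24 and female pedicel 2 in 20, while female pedicel 3 was lowest in 19 and female pedicel 4 in 14. These 2 low libraries also gave the largest share of their counts to the copies and the remaining members, as 23.4% and 24.9% of their counts lay in copies, against 3.71% in female pedicel 1, 8.68% in female pedicel 2 and 19.3% in female pedicel 5. CPM on library totals lowers every other gene of a library by the share that abundant genes take, and its part in the order of the libraries was not tested. Among the 41 remaining members, female pedicel 1 was lowest in 16. In 43 of the 126 members all 5 female pedicels reached 2 times the highest other median, in 51 members 4 did, and in 32 members 3 did.

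The choice was also read in a female pedicel left out of it, as a description, since the other 15 libraries served both to choose the genes and to set the level they were held to. Leaving out female pedicel 1, the rule chose 143 genes on the other 19 libraries, and 57 of them (39.9%) stood in female pedicel 1 at 2 times the highest other median or more. The same was true of 101 of 123 genes (82.1%) in female pedicel 2, 98 of 136 (72.1%) in female pedicel 3, 105 of 147 (71.4%) in female pedicel 4 and 104 of 131 (79.4%) in female pedicel 5. Of all genes with a median of at least 5 CPM in the other 4 female pedicels, between 1.19% and 3.41% did so in the library left out. The chosen genes had low medians in the other groups by the rule, so part of their excess over these shares was fixed by the choice. Female pedicel 1 stood apart from the other 4, and there the chosen genes had a median level of 0.486 times that in the other female pedicels, against 0.816 to 1.07 times in the others.

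Genes near the limits differed little on either side of them. AAEL017513, AAEL013251 and AAEL024746 were taken in with ratios of 2.00, 2.01 and 2.01, and AAEL028895, AAEL017811 and AAEL006647 were left out with 1.99, 1.95 and 1.95. At the limit on the level, AAEL001319, AAEL008013 and AAEL002092 had female pedicel medians of 5.07, 5.18 and 5.59 CPM, while AAEL019454, AAEL029038 and AAEL014627 were left out at 4.87, 4.81 and 4.75 CPM. Of the 126 members, 60 had a ratio under 3. The 3 genes left out as limited to females, AAEL004301, AAEL012377 and AAEL028663, had female pedicel medians of 385, 232 and 2361 CPM and female head medians of 7.07, 5.14 and 37.9 CPM. For AAEL004301 and AAEL012377 the female pedicel stood at 53.7 and 44.3 times the highest other median, a ratio like those of AAEL006176 and AAEL005374. Members that came near being left out as limited to females include AAEL006176, AAEL014615 and AAEL028731. Their female head medians were 5.37, 3.67 and 1.31 CPM, against male head medians of 0.319, 0.158 and 0 CPM. In pedicels, AAEL006176 and AAEL014615 had female medians of 302 and 135 CPM against male medians of 5.78 and 1.72 CPM.

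Male pedicels against male heads asked whether these genes were also higher in the pedicel than in the head in males. The rule held both male groups below the female pedicel but did not use the difference between them. Of the 126 members, 96 were higher in male pedicels than in male heads (76.2%, edgeR's quasi-likelihood test, Benjamini-Hochberg adjusted p under 0.05), where 26.7% of all 11381 genes tested were higher and 51% differed in either direction. None was lower, against 24.3% of all genes, and none was lower at an unadjusted p under 0.05 or with DESeq2 or limma-voom. A gene with a higher median in male heads than in female pedicels could not be a member, whereas all genes tested were under no such limit. How much of the difference from all genes this limit sets was not tested. All 126 passed the filter on low counts over the 4 groups, but 38 of them passed it only through libraries outside this comparison. When the 2 groups were filtered and fitted alone, 73 of the 88 members tested were higher (83%) and none was lower, where 24.9% of 10637 genes were higher. Counting each pattern of values once in the fit of all groups, 67 of 95 were higher (70.5%), with a median log2 fold of 2.54. The median was 3.07 over the 126 IDs, which is the value of the 21 identical copies, and 0.10 over all genes tested.

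All 3 sets took part in this in the edgeR fit of all 20 libraries. Higher in male pedicels were 33 of the 50 separated genes (median log2 fold 2.01), 32 of the 35 copies, which are 3 of 4 patterns, and 31 of the 41 remaining members (median log2 fold 3.20). Without male pedicels 3 and 4 the members higher in male pedicels numbered 75, where 2618 of 11726 genes were higher. The median log2 fold over the 126 was 1.46. Lower were 3 members, AAEL003112, AAEL004002 and AAEL026022, where 2402 of all genes were lower. In this fit 15 of the 41 remaining members were higher (median log2 fold 1.665), as were 28 of the 50 separated genes (median log2 fold 1.783). Of the 35 copies, 32 were higher. With limma-voom only 43 of the 126 were higher, where 2774 of 11381 genes were higher. Of the 43, 20 were separated, 11 copies and 12 remaining. The shares among copies and remaining members were then only a little above that of all genes. The cause of the smaller count with limma-voom was not tested.

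Among the members called, AAEL019334 had the largest fold. It stood at 49.7, 8.64, 1465, 135 and 9.52 CPM in male pedicels and at 0, 7.08, 0, 0 and 0 CPM in male heads. The log2 fold was 8.72 (SE 1.86, edgeR adjusted p = 6.6e-04), and it was 6.32 without male pedicel 3, 14.57 without male head 2 and 4.18 without male pedicels 3 and 4. Limma-voom did not call it, with an adjusted p of 0.309, and over all settings the adjusted p ran from 6.1e-06 to 0.309. Next came the pattern of 7 copies that includes AAEL028689, with 380 to 32226 CPM in male pedicels and 9.90 to 272 CPM in male heads. Its fold, 6.84 on the log2 scale (SE 1.36, edgeR adjusted p = 3.4e-04) was 5.34 without male pedicel 4 and 2.92 without male pedicels 3 and 4.

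AAEL007806, singled out after its values were seen as the most abundant separated gene, gave a far tighter difference. It had 662, 389, 362, 235 and 657 CPM in male pedicels, against 10.4, 14.2, 11.5, 11.0 and 14.5 CPM in male heads, with no overlap. Its log2 fold was 5.44 (SE 0.23, edgeR adjusted p = 7.9e-13), and it ran from 5.22 to 5.55 over the settings tried. The gene was thus high in the pedicels of both sexes, and its higher level in those of females is what made it a member.

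**Figure D5:**
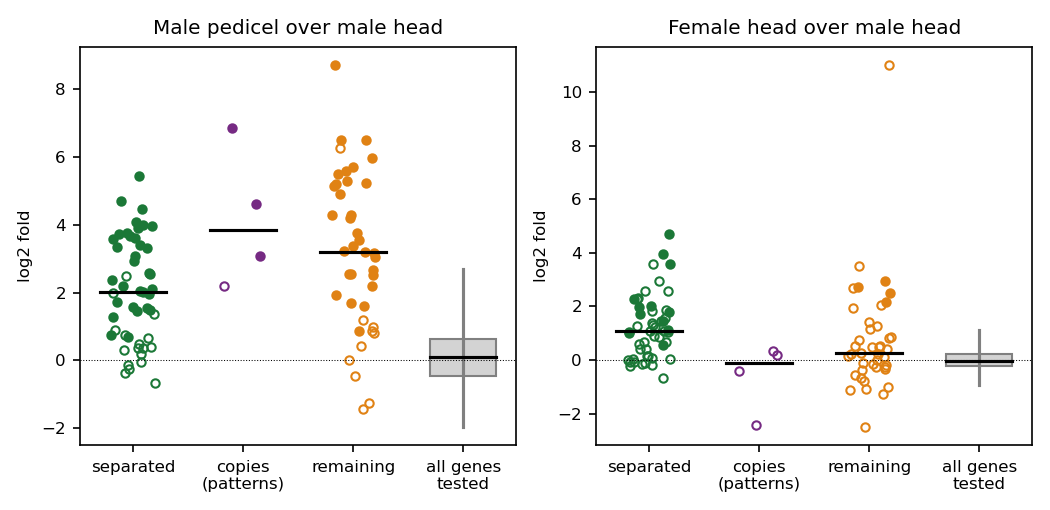
Log2 fold of male pedicels over male heads (left) and of female heads over male heads (right) for the distinct patterns of each set, with filled points for an adjusted p under 0.05, open points for the others and a bar at the median. The grey box spans the interquartile range of all 11381 genes tested, and the separated genes have medians of 2.01 on the left and 1.08 on the right.

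Female heads against male heads asked whether the sexes also differed in the other tissue. The rule held both heads below the female pedicel and left out the 3 genes limited to females, but did not otherwise use the difference between the heads. Here too, all genes tested were under no such limit. Of the 126 members, 16 were higher in female heads (12.7%), where 6.73% of all genes tested were higher and 7.86% differed in either direction, and none was lower, against 1.12% of all genes. The count was 25 with DESeq2 and 9 with limma-voom, where 897 and 707 of all 11381 genes tested were higher. With limma-voom the share among members was thus near that of all genes. None was lower with either tool, and none was lower at an unadjusted p under 0.05. Only 82 members passed the filter on low counts in the 2 head groups alone, and the other 44 were let in by pedicel libraries. Fitted on the heads alone, 15 of the 82 were higher (18.3%) and none was lower, where 9.83% of 10454 genes were higher. Of the 16, 12 were among the 50 separated genes and 4 among the remaining 41, and none was a copy. Counting each pattern once, 16 of 95 were higher (16.8%), with a median log2 fold of 0.66. The median was 0.34 over the 126 IDs, again the value of the 21 identical copies, 1.08 over the separated genes and -0.03 over all genes tested. In 110 members the sexes did not differ beyond the threshold in the head, which does not show that they were alike.

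Among the 16 members called, AAEL010375 had the largest fold, with 0.393, 0.857, 0.128, 0.524 and 0.577 CPM in female heads, 18 counts in all, and no count in the 5 male heads. It was therefore at least 5.76-fold higher in female heads, a bound that puts 3 counts in the male heads together and covers counting error only. Its adjusted p was 4.4e-03 in edgeR and ran from 1.2e-03 with DESeq2 to 0.0659 with limma-voom, where the call was lost. AAEL014615, described above, stood at 3.67, 2.43, 1.28, 5.37 and 8.51 CPM in female heads against 0, 1.19, 0.158, 0 and 0.213 CPM in male heads. Its log2 fold was 3.94 (SE 0.84, edgeR adjusted p = 4.4e-03), or 5.17 without male head 2, and limma-voom did not call it, with an adjusted p of 0.101. Over all settings run for it the adjusted p ran from 1.5e-05 to 0.101. Neither AAEL010375 nor AAEL014615 had enough counts to pass the filter in heads alone, and both were tested only because pedicel libraries carried them through it.

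AAEL021440, singled out after its values were seen for its lowest adjusted p, combined a clear level in both tissues. It had 149, 101, 161, 136 and 137 CPM in female heads against 25.7, 29.9, 32.5, 30.2 and 27.8 CPM in male heads, which is 2.29 on the log2 scale (SE 0.16, adjusted p = 2.5e-08 in edgeR). In pedicels it had 571, 330, 333, 286 and 255 CPM in females and 165, 93.2, 95.8, 57.1 and 169 CPM in males. In heads, females thus exceeded males without overlap. The higher level of females in pedicels is what made the gene a member and is no separate result.

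Use of transcripts within a gene did not enter the choice. Of the 126 members, 22 (17.5%) had more than 1 transcript in the table, against 24.3% of all gene IDs, and none of the copies did. In 15 members at least 2 transcripts had enough counts for a test, which was edgeR's diffSpliceDGE with p-values combined by the Simes method. None of the 15 differed between female and male pedicels at an adjusted p under 0.05, where 0.59% of 3387 genes did, and none between female pedicels and female heads, where 0.709% did. None reached an unadjusted p under 0.05 in either comparison. The lowest adjusted p was 0.522, for AAEL009114 against female heads, and no other tool was run on transcripts.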

How the data were processed

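Per the labels, RNA was extracted with phenol and chloroform, and the submitters' processing notes list FastQC, HISAT2 and featureCounts. Versions, build and annotation: not given in the sources used here. What the authors deposited are unscaled estimated counts for 34477 transcripts, many with fractions. Estimated counts were summed by gene ID. CPM values are on library totals and chose the members. For tests the sums were rounded, filtered with filterByExpr, scaled by TMM (factors 0.49 to 1.31) and fitted over all 20 libraries with edgeR 4.0.16 (glmQLFit, robust, R 4.3.3), and p-values were adjusted over all 11381 genes. Standard errors are the absolute log2 fold over the square root of F. The fits were tested on simulated data. DESeq2 1.42.0 and limma 3.58.1 served as alternatives.

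The members, sets and lists were chosen with earlier results of these data known. Named genes are the highest in ratio (8), level (8, copies by pattern) and spread (5 at each end), those nearest the limits, and the 2 largest rises per tested comparison, since the IDs have no names. The pattern lists rest on gene names and were not analysed here. Replicate numbers do not pair the libraries by the labels.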

Additional observations from a re-analysis of the deposited data

Results flagged for a closer look

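Among 52 groups of 5 libraries examined for a single library far from the other 4, 5 were marked. Many of these groups belong to genes picked for their ratio, level, spread or fold, so a chance rate of about 1 in 20 does not apply to them. Female pedicel 1 held AAEL007097 at 31.8 CPM, against 0.144 to 8.48 CPM in the other female pedicels. The same library held AAEL021440 at 571 CPM, against 255 to 333 CPM in the others. AAEL019334 stood at 1465 CPM in male pedicel 3, against 8.64 to 135 CPM in the other male pedicels, and at 7.08 CPM in male head 2, where the other male heads had none. AAEL014615 stood at 1.19 CPM in male head 2, against 0 to 0.213 CPM in the other male heads. None of these libraries was left out of a result given above, other than where a value without it is stated.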

How the results depend on the processing

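The number of members depended on the scaling. It was 226 with TMM scaling, 211 with RLE scaling and 227 once the 20 most abundant genes were taken out of the totals, and 124 of the 126 were chosen each time. It was 219 with a minimum of 1 CPM, 66 at a ratio of 3, 57 at a ratio of 4 and 50 if every female pedicel had to lie above every other library, and 96 to 147 with 1 library left out. With means in place of medians, 115 genes were chosen, 87 of them members. The median spread of 3.55 was 4.81 with TMM, 4.77 with RLE and 4.51 without the 20 most abundant genes, and 2.18 to 3.55 with 1 female pedicel left out. Members higher in male pedicels than in male heads numbered 43 with limma-voom, where 2774 of all 11381 genes were higher. They numbered 91 to 99 with 1 library left out. Members lower numbered 0 to 1, the 1 being AAEL026022 without male pedicel 4, and 3 without male pedicels 3 and 4. The last setting was chosen after seeing the data. Members higher in female heads than in male heads numbered 9 with limma-voom and 25 with DESeq2, where 707 and 897 of all 11381 genes were higher. They numbered 12 to 20 with 1 library left out, and members lower 0. Library totals alone in place of TMM moved the median log2 fold of male pedicels over male heads to -0.12 over all genes and to 2.39 over the members, of which 91 were higher. With a replicate block, a factor for the number in the labels, 96 and 19 members were higher in the 2 comparisons, against 96 and 16 without it. Same-numbered libraries correlated in their deviations at 0.012 to 0.32 between male pedicels and male heads and at 0.0182 to 0.316 between female and male heads. Between female and male pedicels the values were 0.0709 to 0.379. Differently numbered libraries were not compared, so a shared batch behind the numbers cannot be told from these values. The numbers were not taken as pairs because the labels do not pair the libraries. No isoform call appeared in any setting. For the 6 genes named in the 2 tested comparisons, 3 calls were lost, each with limma-voom, and 112 other settings kept the call and its direction; the cause was not tested. Depth limits genes near 5 CPM.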
